A study of Mus musculus with 8 samples.

Results

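The genes of the NRF2, glutathione and redox system were examined in mouse interfollicular epidermis, the skin epithelium that lies between hair follicles. Every probe set that the platform annotation assigns to a single gene, where that gene was 1 of 41 named genes, was taken. This gave 58 probe sets of 37 genes, out of 45037 probe sets and 17097 genes measured. Keap1, Gsta3, Prdx6 and G6pdx are not analysed here, since no probe set assigned to a single gene carried these symbols. The 551 probe sets assigned to several genes were not searched for them. Of the 37 genes, 22 had 1 probe set, 12 had 2 and 3 had 4.

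Expression was measured on 8 arrays of 1 colour, 4 labelled G9a cKO (a conditional knockout of the H3K9 methyltransferase gene Ehmt2) and 4 labelled G9a WT. All animals were 15 weeks old and all had been painted on shaved back skin with the carcinogen DMBA at 0.25 mg/ml and the tumour promoter TPA at 0.02 mg/ml, once a week for 6 weeks from an age of 8 weeks, and the tissue was pre-neoplastic. No untreated skin is among the samples used here, so the groups differ in genotype and share the carcinogen and the promoter. The sources used here give no strain, sex, Cre driver or deleted part of Ehmt2. They do not state that replicates are different animals, so the p-values reflect only variation among these samples, which may be technical.

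The values are log2 expression per probe set after RMA, with array medians between 5.72 and 5.80. Ehmt2 read 6.61 ± 0.36 in cKO and 9.49 ± 0.28 in WT at probe set 1460692_PM_at (log2, mean ± SD, n = 4 each), 7.37-fold lower in cKO (limma adjusted p = 0.000244). Its second probe set, at 0.01 (limma adjusted p = 0.996), did not pass, and whether it lies in the deleted part is not known here. The gene table, which holds 1 probe set per gene, took this second one for Ehmt2, at a mean of 8.35 against 8.05. That table therefore does not show the fall of Ehmt2, and other genes may go uncalled in it for the same reason. The keratinocyte genes Krt5, Krt14 and Krt10 were at 12.6, 12.9 and 12.2 in both groups. None of 78 marker genes of 14 skin cell types and tissues passed the test in the gene table, where 0.977% of all genes passed. With so small a share this is a weak check, and whether cell composition differed was not tested. Basal keratinocyte markers averaged 11.7 to 11.8 per array in each group and macrophage and neutrophil markers 4.56 to 4.66. Single markers differed more, with Cd74 at 0.49 (SE 0.32), H2-Aa at 0.40 and Flg at -0.31. All cKO arrays lay above all WT arrays for Mlana, at 0.25, and Lyz2, at 0.15, and below them for Itgam, at -0.10. On the first principal component over all genes WT 4 lay among the cKO arrays, and cKO 2 lay closest to WT of the cKO arrays, so results are also given without these arrays. In this bulk tissue fewer cells of a type and less RNA per cell cannot be told apart.

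NRF2, encoded by Nfe2l2, is a transcription factor that KEAP1 marks for degradation in unstressed cells. Oxidants and electrophiles release it from KEAP1, and it then binds antioxidant response elements near genes that make glutathione, conjugate it to foreign compounds, remove peroxides and supply NADPH. In keratinocytes this programme is known to protect against chemical carcinogens and to be active in the upper epidermal layers. Selenium enters the same system, since several glutathione peroxidases, thioredoxin reductase and selenoprotein W carry selenocysteine.

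The antioxidant response element contains the core TGACNNNGC, and the TPA response element bound by AP-1 has the form TGANTCA, so that a single site can hold both. Both were searched on either strand in RefSeq start-site windows of GRCm38.p6, from 250 bases before to 50 bases after each start. Of the 37 measured members 32 had such a window, and 10 of these held the first motif (31.2%, against 14.0% of 27025 genes), while 7 held the second (21.9%, against 8.97%). The 27025 genes were not limited to measured ones, and the members were listed as NRF2, glutathione and redox genes. These shares are therefore descriptions of unlike lists. The genes with the first motif were Nfe2l2, Pir, Gclm, Gstm5, Mgst1, Txnrd1, Srxn1, Prdx1, Sod1 and Me1. A match is a run of letters and not a shown binding site. Windows of 30 bases follow for each match that lies wholly before a start, written 5′ to 3′ on the strand of the gene with the match in capitals; a match on the other strand reads GCNNNGTCA.
Nfe2l2, chr2:75704884-75704913, minus strand: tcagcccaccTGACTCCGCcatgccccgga
Pir, chrX:164269207-164269236, plus strand: gcatagagagGCTGAGTCActcccccaaac
Gclm, chr3:122245413-122245442, plus strand: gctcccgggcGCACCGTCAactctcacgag
Gstm5, chr3:107895802-107895831, plus strand: caccgcccacTGACCACGCggagggcgggt
Mgst1, chr6:138140461-138140490, plus strand: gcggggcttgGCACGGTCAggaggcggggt
Txnrd1, chr10:82859104-82859133, plus strand: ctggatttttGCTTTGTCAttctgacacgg
Prdx1, chr4:116685456-116685485, plus strand: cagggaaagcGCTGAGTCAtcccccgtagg
Sod1, chr16:90220696-90220725, plus strand: gccaaggtggGCGTGGTCAgactcaggcct

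The matches of Pir and Prdx1 have the same 9 letters, which also hold the TPA response element. The 250 bases before the start are shown whole for Pir and Selenow, the members that passed the test over all probe sets, with matches to either motif in capitals.
Pir, chrX:164269181-164269430, plus strand: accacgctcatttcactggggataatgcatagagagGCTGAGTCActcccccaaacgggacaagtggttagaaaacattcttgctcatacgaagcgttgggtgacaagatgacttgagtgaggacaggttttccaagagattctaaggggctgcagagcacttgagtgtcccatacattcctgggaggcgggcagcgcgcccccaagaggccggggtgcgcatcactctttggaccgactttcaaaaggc
Selenow, chr7:15922372-15922621, minus strand: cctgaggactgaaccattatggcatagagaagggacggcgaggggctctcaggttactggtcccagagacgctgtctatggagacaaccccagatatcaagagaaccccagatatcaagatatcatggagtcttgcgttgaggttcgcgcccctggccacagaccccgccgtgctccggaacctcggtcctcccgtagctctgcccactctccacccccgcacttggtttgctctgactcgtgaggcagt

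Before its start Pir held 1 match to the first motif, which also holds the second, and Selenow held neither motif in this window. Across members with a window, the median log2 fold change was 0.09 for the 10 genes with the first motif and 0.03 for the 22 without it, and genes that rose in the gene table numbered 1 and 2. These medians are descriptions of few genes.

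Most members did not pass the test between cKO and WT. Of 58 member probe sets 2 rose in cKO, at Pir and Selenow, none fell and 56 did not pass (limma over all 45037 probe sets, Benjamini-Hochberg adjusted p under 0.05), where 0.466% of all probe sets passed. With 1 probe set per gene, 3 of 37 member genes rose, Pir, Selenow and Gsto1, and none fell, where 0.977% of 17097 genes passed. At an unadjusted limma p under 0.05 the member probe sets numbered 10 higher and 3 lower, where 7.98% of all probe sets passed, 5.06% higher and 2.92% lower. The members were named with results of these data known, so the counts are descriptions. Every member call was higher in cKO under each setting tried, but the count of 2 became 1 without cKO 2 and 0 without cKO 3, WT 1 or WT 3, while that of 3 genes became 2 without any 1 of cKO 1, cKO 2, cKO 3, WT 1, WT 3 or WT 4.

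The changes were small. The median log2 fold change was 0.02 over member probe sets and 0.01 over all probe sets, and the median size regardless of sign was 0.09 against 0.05. Many member probe sets lay at high levels, and this comparison was not matched for level. Of the 58 member probe sets, 34 differed by less than 0.1 in either direction. The 95% limma intervals stayed within 0.5 on either side of 0 for all but 10 of them, and the interval that reached furthest, to -0.98, was that of Gsta4. All 4 cKO arrays lay above all 4 WT arrays in 8 member probe sets and below them in 4, where 4.89% of all probe sets did not overlap, 3.17% above and 1.72% below.

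**Figure D1:**
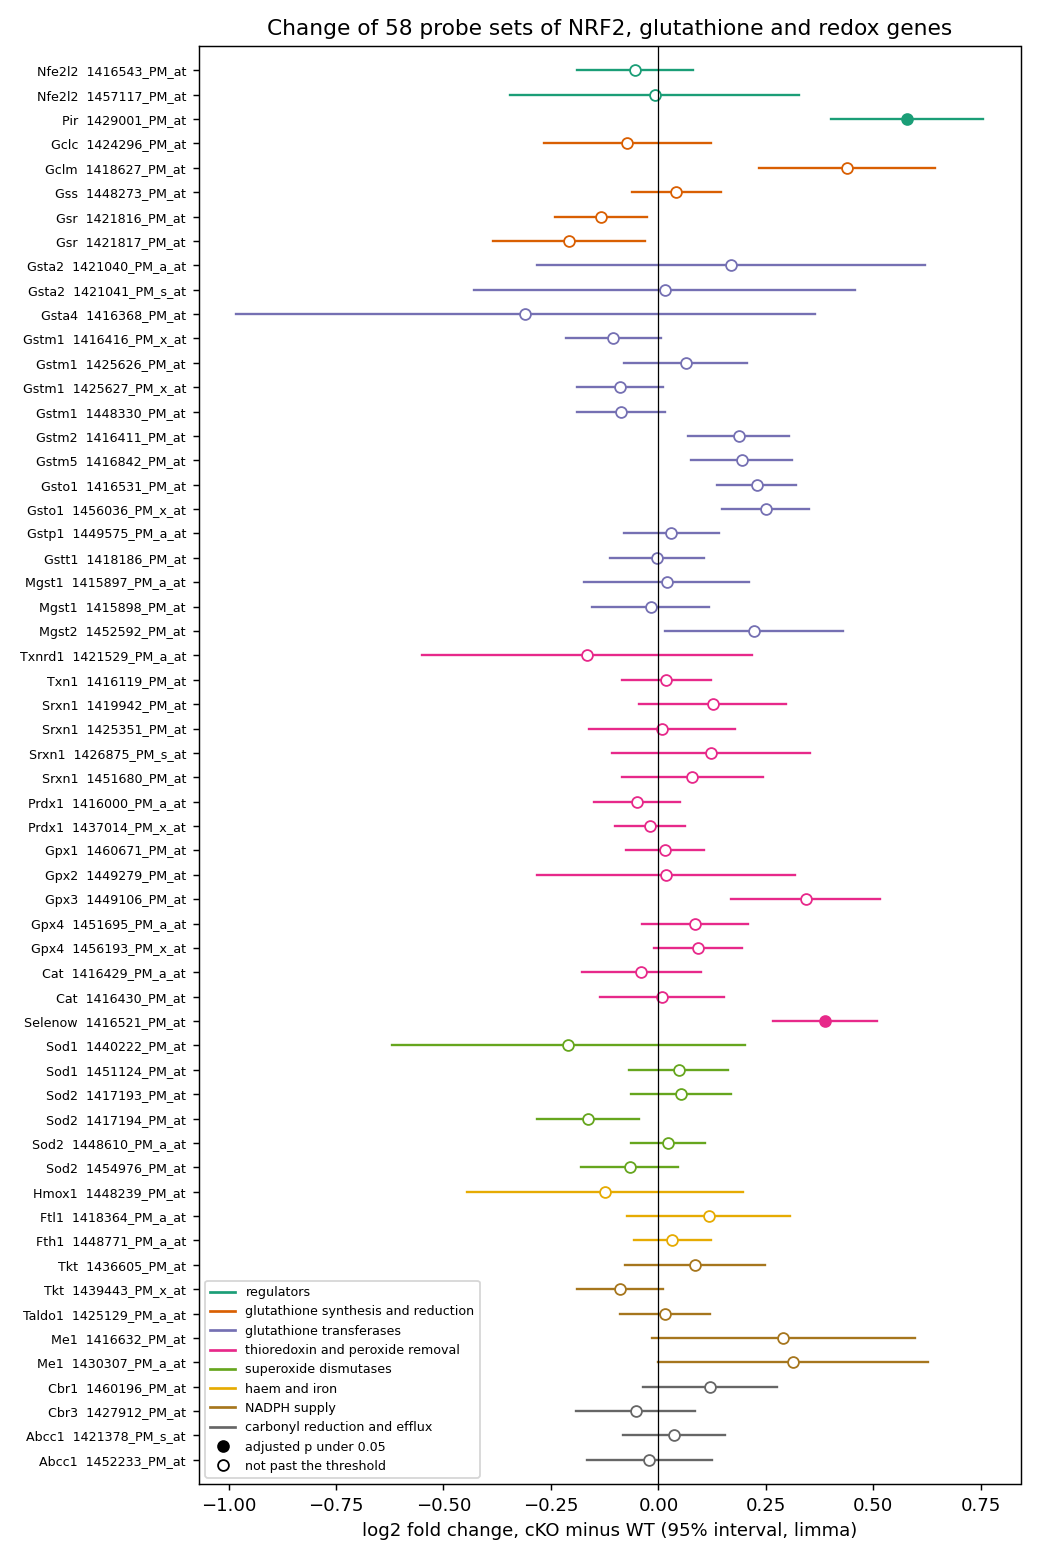
Change of each of the 58 member probe sets, as log2 fold change of cKO minus WT on the horizontal axis with its 95% limma interval, coloured by role. Filled points passed the test over all probe sets: Pir at 0.58 and Selenow at 0.39, while 56 open points did not.

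Among the regulators, Nfe2l2 did not pass and Pir rose. At the Nfe2l2 probe set 1416543_PM_at the cKO arrays read 8.40, 8.41, 8.35 and 8.23 (log2, replicates 1 to 4) and the WT arrays 8.49, 8.46, 8.35 and 8.31. The groups overlapped, with a log2 fold change of -0.05 (SE 0.06, 95% interval -0.19 to 0.08, limma adjusted p = 0.943). At its other probe set, 1457117_PM_at, the cKO arrays read 6.27, 5.95, 6.14 and 5.78 and the WT arrays 6.26, 5.75, 5.84 and 6.31. The highest and lowest arrays of this probe set were both WT, and the difference was -0.01 (SE 0.15), with a sign that turned with some settings. NRF2 is regulated mainly through the stability of the protein, which these arrays do not measure.

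Pir encodes pirin, an iron-binding nuclear protein that acts as a transcriptional co-regulator and is known as an NRF2 target. Its probe set, 1429001_PM_at, read 6.19, 6.16, 6.24 and 6.24 in cKO and 5.51, 5.87, 5.61 and 5.52 in WT. The cKO arrays lay close together and above every WT array, and WT 2 came nearest to them. Pir rose 1.49-fold, with a log2 fold change of 0.58 (SE 0.08, 95% interval 0.40 to 0.76, limma adjusted p = 0.0145 over all probe sets and 0.00770 over genes). By exact permutation, two-sided, p was 0.0286, the lowest value possible with 70 arrangements. In the gene table it passed whichever array was left out, while over all probe sets the limma adjusted p became 0.0683 without cKO 3, 0.0647 without WT 1 and 0.0648 without WT 3. Without both cKO 2 and WT 4 the log2 fold change was 0.56 (limma adjusted p = 0.0316).

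Glutathione is made in steps by glutamate-cysteine ligase, of catalytic subunit Gclc and modifier subunit Gclm, and by glutathione synthetase, Gss, and glutathione reductase, Gsr, regenerates it from its oxidised form. None of their 5 probe sets passed. Gclm, whose product raises the affinity of the catalytic subunit for glutamate, stood out in size: the cKO arrays read 7.66, 7.61, 7.61 and 7.32 and the WT arrays 7.26, 6.99, 7.01 and 7.20. All cKO arrays were above all WT arrays, cKO 4 narrowly so. The log2 fold change was 0.44 (SE 0.09, 1.36-fold, exact permutation p = 0.0286), with a limma adjusted p of 0.108 over all probe sets and 0.0655 over genes. Without cKO 4 it was 0.52 and passed (limma adjusted p = 0.0361 over all probe sets). With any other single array left out it did not pass (highest limma adjusted p = 0.348 over all probe sets).

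The catalytic subunit, Gclc, read 8.35, 8.22, 8.13 and 8.04 in cKO and 8.38, 8.33, 8.28 and 8.05 in WT, a difference of -0.07 on the log2 scale (SE 0.09, limma adjusted p = 0.949). Gss was at 0.04 (SE 0.05). Both probe sets of Gsr had lower means in cKO. At 1421816_PM_at the cKO arrays read 6.96, 7.03, 7.02 and 6.88 and the WT arrays 7.07, 7.15, 7.08 and 7.12. These groups did not overlap, and the log2 fold change of -0.13 (SE 0.05, 95% interval -0.24 to -0.03) had a limma adjusted p of 0.470. At 1421817_PM_at the cKO arrays read 8.40, 8.09, 8.20 and 8.06 and the WT arrays 8.29, 8.41, 8.40 and 8.47, so that cKO 1 reached into the WT range. That difference was -0.21 (SE 0.08, limma adjusted p = 0.515).

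Glutathione transferases join glutathione to electrophiles, including activated products of polycyclic hydrocarbons. Of their 16 member probe sets none passed over all probe sets, and of 10 genes Gsto1 rose in the gene table. Gsto1 encodes the omega-class enzyme, which has a cysteine in its active site and acts as a thiol transferase and dehydroascorbate reductase. Its probe set 1416531_PM_at read 11.08, 11.10, 11.06 and 11.03 in cKO and 10.79, 10.90, 10.83 and 10.84 in WT. Its other, 1456036_PM_x_at, read 10.76, 10.78, 10.78 and 10.76 in cKO and 10.50, 10.60, 10.53 and 10.44 in WT. At both, every cKO array was above every WT array, and the cKO arrays lay close together (SD 0.03 and 0.01).

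The differences of Gsto1 were 0.23 (SE 0.04, 1.17-fold) and 0.25 (SE 0.05, 1.19-fold), with limma adjusted p of 0.0591 and 0.0622 over all probe sets and 0.0386 for the first over genes. This call in the gene table was lost without any 1 of 7 arrays and kept without WT 2, with limma adjusted p from 0.0467 to 0.152. It was also lost in the fit with the replicate block (limma adjusted p = 0.150 over genes, 0.225 and 0.199 at the 2 probe sets) and in the upper 50% of genes by mean (0.0578). Over all probe sets both passed with cyclic loess (limma adjusted p = 0.0454 and 0.0377), eBayes with trend (0.0211 and 0.0329) and array weights (0.0170 and 0.0155). Without WT 2 only the second passed there (limma adjusted p = 0.0489). The suffix _x_at of the second marks probes that other transcripts may share.

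**Figure D2:**
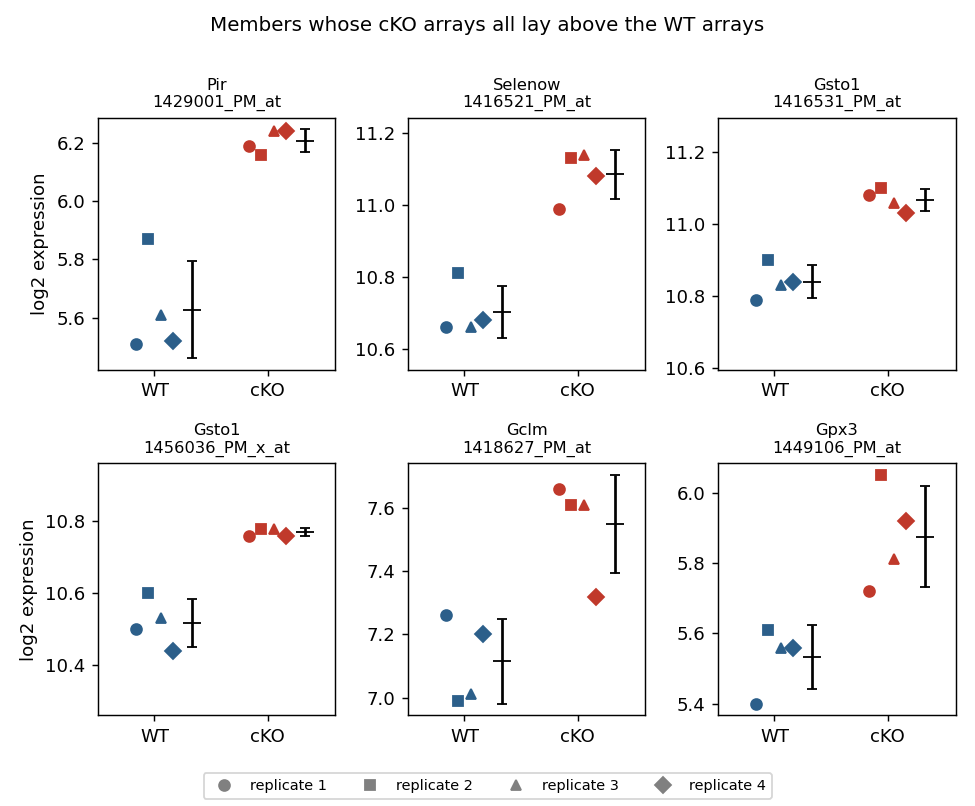
Values on each array of 6 member probe sets, log2 expression on the vertical axis, WT in blue and cKO in red, with a marker for each replicate and bars for mean ± SD (n = 4). In each panel all cKO points lie above all WT points, most narrowly for Gclm, where cKO 4 at 7.32 is near WT 1 at 7.26.

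Mu-class transferases differed in the sign of their differences. Gstm2 (1416411_PM_at) read 9.97, 9.91, 9.84 and 9.81 in cKO and 9.68, 9.71, 9.63 and 9.77 in WT. Gstm5 (1416842_PM_at) read 8.02, 8.02, 8.16 and 8.09 in cKO and 7.97, 7.90, 7.85 and 7.80 in WT. In both genes the cKO arrays lay above the WT arrays, with a log2 fold change of 0.19 (SE 0.05) in each and limma adjusted p of 0.278 and 0.256, so neither passed. Gstm1 had means below WT at 3 of its 4 probe sets, at -0.10, -0.09 and -0.09, and 0.06 at the fourth, 1425626_PM_at, which was at a low level of 4.63 in cKO and 4.57 in WT (limma adjusted p from 0.660 to 0.923). At 1425627_PM_x_at and 1448330_PM_at all cKO arrays of Gstm1 lay below all WT arrays, and at 1416416_PM_x_at the groups overlapped. These genes are near relatives, so their probes may bind each other's transcripts and the share of each is uncertain.

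The alpha-class genes varied most among arrays of a group. Gsta4, whose enzyme prefers the lipid peroxidation product 4-hydroxynonenal, read 7.01, 7.33, 6.88 and 7.27 in cKO and 7.10, 8.00, 8.02 and 6.61 in WT. Its highest arrays and its lowest were WT, and the difference of -0.31 (SE 0.30, limma adjusted p = 0.920) was smaller than the WT standard deviation of 0.70. Gsta2 differed by 0.17 (SE 0.20) and 0.01 (SE 0.20) at its probe sets, where cKO 3 and cKO 4, at 8.04 and 8.12 at 1421041_PM_s_at, and cKO 1 and cKO 2, at 7.26 and 7.34, lay on either side of the WT arrays (7.54 to 7.88).

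Of the membrane-bound enzymes, Mgst2, which can form leukotriene C4, read 10.57, 10.63, 10.75 and 10.88 in cKO and 10.42, 10.35, 10.46 and 10.71 in WT. WT 4 reached into the cKO range, and the difference of 0.22 (SE 0.09) did not pass (limma adjusted p = 0.572). Mgst1 stood at 0.02 (SE 0.09) and -0.02 (SE 0.06), the second probe set being at a low level of 3.66 in cKO. Gstp1, the pi-class enzyme best known from tumours, was at 0.03 (SE 0.05, 95% interval -0.08 to 0.14) and Gstt1 of the theta class at -0.0032 (SE 0.05).

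Thioredoxin and peroxide removal had 16 probe sets of 10 genes, of which Selenow rose and 15 probe sets did not pass. Selenow encodes selenoprotein W, a small selenocysteine protein with a thioredoxin-like fold. Probe set 1416521_PM_at read 10.99, 11.13, 11.14 and 11.08 in cKO and 10.66, 10.81, 10.66 and 10.68 in WT. All cKO arrays were above all WT arrays, and WT 2 stood apart above the other WT arrays. Selenow rose 1.31-fold, by 0.39 (SE 0.05, 95% interval 0.27 to 0.51, limma adjusted p = 0.0161 over all probe sets and 0.00912 over genes, exact permutation p = 0.0286). The call over genes stood whichever array was left out, and that over probe sets was lost without cKO 2, cKO 3, WT 1 or WT 3 (limma adjusted p = 0.0653, 0.0801, 0.0846 and 0.0787). Without both cKO 2 and WT 4 the difference was 0.36 (limma adjusted p = 0.0454).

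Of the glutathione peroxidases, which reduce peroxides with glutathione, Gpx3 came nearest to the threshold. Gpx3, the secreted form, read 5.72, 6.05, 5.81 and 5.92 in cKO and 5.40, 5.61, 5.56 and 5.56 in WT. Every cKO array was higher, and the log2 fold change of 0.34 (SE 0.08, 1.27-fold) had a limma adjusted p of 0.147 over all probe sets and 0.0902 over genes. It passed over genes in the fit with the replicate block (limma adjusted p = 0.0440). With array weights it passed over genes (limma adjusted p = 0.0270) and over all probe sets (0.0465). With any single array left out it did not pass (highest limma adjusted p = 0.274 over genes). The cytosolic Gpx1 was at 0.02 (SE 0.04, 95% interval -0.08 to 0.11) and the epithelial Gpx2 at 0.02 (SE 0.13). Gpx4, which reduces lipid hydroperoxides and restrains ferroptosis, stood at 0.09 at both probe sets (SE 0.05 and 0.04, limma adjusted p = 0.816 and 0.679).

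The thioredoxin arm itself did not pass. Txn1, thioredoxin, read 12.01, 12.02, 11.91 and 11.95 in cKO and 11.96, 12.00, 11.98 and 11.88 in WT, with groups that overlapped throughout (log2 fold change 0.02, SE 0.05, negative without WT 4). Txnrd1, the reductase that recharges it, read 9.54, 9.56, 9.08 and 8.90 in cKO and 9.53, 9.45, 9.67 and 9.09 in WT. The low arrays were cKO 3, cKO 4 and WT 4, so that the spread lay within the groups (difference -0.17, SE 0.17, limma adjusted p = 0.932). Srxn1, sulfiredoxin, which repairs over-oxidised peroxiredoxins, had 4 probe sets between 0.01 and 0.13. Prdx1, which turns over hydrogen peroxide with thioredoxin, was at -0.05 (SE 0.04) and -0.02 (SE 0.04), and catalase, Cat, at -0.04 (SE 0.06) and 0.01 (SE 0.06).

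Superoxide dismutases turn superoxide into hydrogen peroxide, and none of their 6 probe sets passed. The cytosolic Sod1 read 10.96, 10.89, 10.80 and 10.82 in cKO and 10.82, 10.89, 10.77 and 10.80 in WT at 1451124_PM_at, a difference of 0.05 (SE 0.05). A second probe set, 1440222_PM_at, was dimmer and more scattered, at 6.24, 6.23, 6.64 and 6.23 in cKO and 6.90, 6.66, 5.99 and 6.63 in WT (-0.21, SE 0.18). For the mitochondrial Sod2, probe sets with means near 10.5 differed by 0.05 and 0.02, while 1417194_PM_at read 6.37, 6.21, 6.27 and 6.18 in cKO and 6.38, 6.39, 6.45 and 6.47 in WT. There the groups just missed each other (-0.16, SE 0.05, limma adjusted p = 0.388), and the last probe set was at -0.07 (SE 0.05). The probe sets of Sod2 thus differed in sign.

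Haem and iron genes did not pass either. Hmox1, the inducible haem oxygenase, read 7.52, 7.60, 7.21 and 7.04 in cKO and 7.37, 7.66, 7.62 and 7.21 in WT, with the lowest arrays again cKO 3, cKO 4 and WT 4 (difference -0.12, SE 0.14, limma adjusted p = 0.947). Fth1, the ferritin heavy chain, read 12.05, 12.06, 12.01 and 12.00 in cKO and 11.99, 12.05, 11.98 and 11.98 in WT (0.03, SE 0.04). Ftl1, the light chain, was at 0.12 (SE 0.08).

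Genes that supply NADPH, which keeps glutathione and thioredoxin reduced, had 5 measured probe sets. Me1, cytosolic malic enzyme, had the largest difference among them: at 1430307_PM_a_at the cKO arrays read 8.54, 8.52, 9.03 and 9.05 and the WT arrays 8.48, 8.33, 8.68 and 8.40. The cKO arrays fell into a lower and a higher pair, and the lower pair lay within the WT range. The differences of 0.31 (SE 0.14) and, at the other probe set, 0.29 (SE 0.14) did not pass (limma adjusted p = 0.626 and 0.658). Tkt, transketolase, read 11.69, 11.60, 11.58 and 11.57 in cKO and 11.67, 11.75, 11.70 and 11.66 in WT at 1439443_PM_x_at (-0.09, SE 0.04), and Taldo1, transaldolase, was at 0.02 (SE 0.05).

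Carbonyl reductases and the efflux pump for glutathione conjugates did not pass. Cbr1 read 8.33, 8.43, 8.58 and 8.58 in cKO and 8.45, 8.32, 8.27 and 8.40 in WT (0.12, SE 0.07, limma adjusted p = 0.771), with overlap. Cbr3 was at -0.05 (SE 0.06). Abcc1, the pump, read 10.37, 10.19, 10.26 and 10.21 in cKO and 10.16, 10.21, 10.23 and 10.29 in WT at 1421378_PM_s_at (0.04, SE 0.05), and its other probe set was at -0.02 (SE 0.06).

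**Figure D3:**
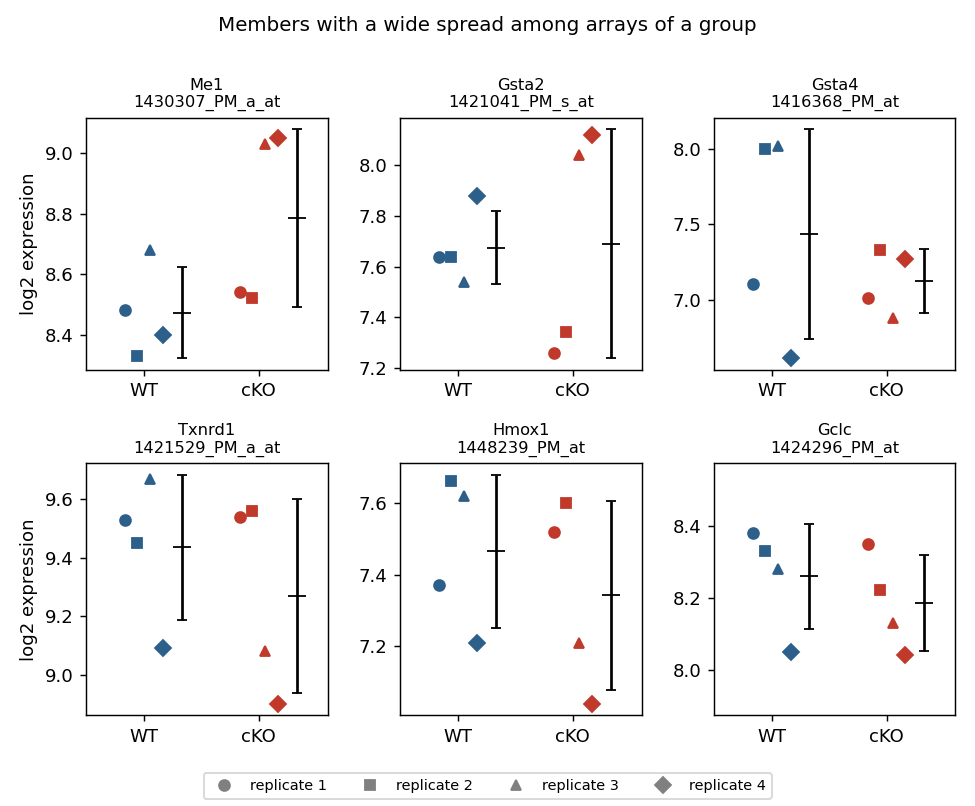
Values on each array of 6 member probe sets shown for their spread among arrays of a group, log2 expression on the vertical axis, WT in blue and cKO in red, with a marker for each replicate and bars for mean ± SD (n = 4). Txnrd1, Hmox1 and Gclc have their lowest values on cKO 3, cKO 4 and WT 4, and Gsta4 spans 6.61 to 8.02 within WT.

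Arrays differed in how members lay on them, and they also differed over all genes. Taking 1 probe set for each of the 37 member genes, cKO 1 had the highest value of the 8 arrays in 9 genes and the lowest in 1, while WT 1 had the highest in 2 and the lowest in 10. Over all genes cKO 1 was highest in 22.1% and lowest in 6.55%, and WT 1 was highest in 5.51% and lowest in 15.8%. The member counts of these arrays as highest are near those shares. WT 4 was the lowest array in 8 member genes (16.0% of all genes), and its members deviated from their means over the 8 arrays by a median of 0.11 regardless of sign, against 0.07 for all genes on that array. This was not particular to WT 4. Members deviated more than all genes on every array (0.10 against 0.07 on cKO 4) except cKO 2 (0.056 against 0.064). The part of these arrays in the results was not tested beyond the values given without them.

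Of the other genes of the pathway, 113 of 130 listed were measured, with 194 probe sets. Of the probe sets 3 rose, those of Selenop, Gstm4 and Msrb2, and none fell (limma over all probe sets, 0.393% of which were higher and 0.0733% lower). Among genes 4 rose, the fourth being Gstk1, and none fell, where 0.790% of all genes rose and 0.187% fell. The median log2 fold change was 0.01 over these probe sets and over all probe sets. Without cKO 2, cKO 3, cKO 4, WT 1 or WT 3 the genes that rose numbered 2, and without WT 4 they numbered 8, with 8 probe sets called (7 higher and 1 lower).

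Selenop, the secreted protein that carries selenium to tissues, had the largest change. Its probe set 1452141_PM_a_at read 9.76, 9.80, 10.08 and 9.96 in cKO and 9.09, 8.84, 8.89 and 9.08 in WT. The groups were far apart relative to their spread, and Selenop rose 1.89-fold, by 0.92 (SE 0.09, 95% interval 0.72 to 1.12, limma adjusted p = 0.00182). The call stood whichever array was left out, with a highest limma adjusted p of 0.0107. Selenop and Selenow are thus both higher in cKO, but the list that holds Selenop had no common direction. Of its 21 probe sets 6 had higher and 15 lower means in cKO (median log2 fold change -0.06). With 1 probe set per gene 6 were higher and 7 lower. Of 13 measured selenoprotein and selenophosphate genes outside the members, the other 12 did not pass, and the next by p was Sephs2, which makes selenophosphate, at -0.16 (SE 0.06, limma adjusted p = 0.456). Of the selenoprotein genes among the members, Gpx1, Gpx2, Gpx3, Gpx4 and Txnrd1 did not pass, as given above.

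Gstm4, a mu-class transferase gene, rose 1.53-fold, from 6.09, 6.19, 6.09 and 6.04 in WT to 6.62, 6.79, 6.80 and 6.65 in cKO at 1424835_PM_at. The difference was 0.61 (SE 0.06, limma adjusted p = 0.00182) and passed whichever array was left out (highest limma adjusted p = 0.0139). In the reference gene table Gstm5, Gstm7, Gstm6, Gstm3, Gstm2, Gstm1 and Gstm4 follow each other on chromosome 3 in this order. Along it the differences at the probe set of each gene with the highest mean were 0.19, -0.05, -0.14, 0.04, 0.19, -0.10 and 0.61, of which that of Gstm4 passed. The second probe set of Gstm7 was at 0.17 (SE 0.06, limma adjusted p = 0.384), and both of its probe sets read 5.07 or lower on every array, levels not set against background here.

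Of other transferases, Gstk1, the kappa-class enzyme of mitochondria and peroxisomes, read 9.58, 9.67, 9.68 and 9.75 in cKO and 9.20, 9.31, 9.22 and 9.49 in WT. Its difference of 0.37 (SE 0.07) passed over genes (limma adjusted p = 0.0466) and not over probe sets (0.0764), and the call over genes was lost without any 1 of 7 arrays (highest limma adjusted p = 0.169). Gstt3 was at 0.31 (SE 0.08, limma adjusted p = 0.183), with all cKO arrays above all WT arrays. Gstt3 passed in 3 of 16 other settings, 1 of them without WT 4 (0.39, limma adjusted p = 0.0112), and the highest limma adjusted p was 0.520.

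Msrb2, a mitochondrial reductase of oxidised methionine, rose 1.41-fold, from 5.71, 5.68, 5.59 and 5.96 in WT to 6.09, 6.32, 6.25 and 6.25 in cKO (0.49, SE 0.08, limma adjusted p = 0.0465). The call was lost without any 1 of 6 arrays (highest limma adjusted p = 0.178), in the fit with the replicate block (0.0676), with cyclic loess (0.0690) and with median centring (0.0700). Of 27 measured genes of this list the other 26 did not pass. Gpx8, of the endoplasmic reticulum, was at 0.33 (SE 0.08). It passed in 3 of 16 other settings, 1 of them without WT 4 (0.40, limma adjusted p = 0.0356), and the highest limma adjusted p was 0.536. Msra and Glrx were at 0.24 (SE 0.07) and 0.26 (SE 0.08). Msra passed in 1 of 16 other settings, without WT 2 (0.31, limma adjusted p = 0.0371), and its highest limma adjusted p was 0.713.

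**Figure D4:**
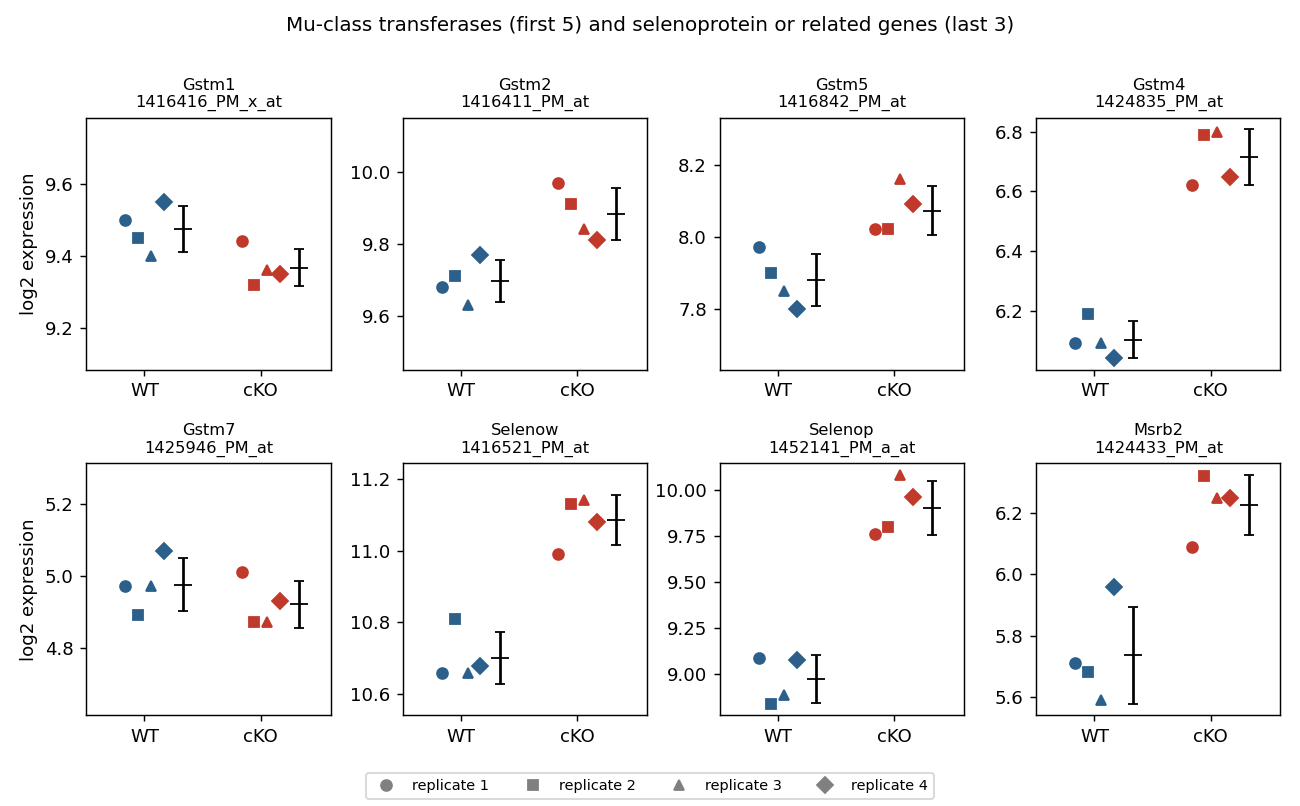
Values on each array of 5 mu-class transferase probe sets, of Selenow and Selenop, and of Msrb2, log2 expression on the vertical axis, WT in blue and cKO in red, with a marker for each replicate and bars for mean ± SD (n = 4). Gstm4 and Selenop show gaps between the groups (6.19 to 6.62 and 9.09 to 9.76), while Gstm1 overlaps at the probe set plotted, 1416416_PM_x_at.

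Further genes listed as NRF2 targets outside the members did not pass. Of 29 measured, none rose and none fell in the gene table, where 0.977% of all genes passed. Nqo1, the quinone reductase most used as a readout of NRF2, read 6.28, 6.10, 5.98 and 5.96 in cKO and 6.06, 5.98, 6.29 and 6.30 in WT (-0.08, SE 0.10, limma adjusted p = 0.951). Slc7a11, the cystine transporter, was at 3.67 in cKO and 3.71 in WT at its brighter probe set, levels not set against background here. Nqo1 and Slc7a11 were named here after their values were seen. Cbr4 and Dcxr, which reduce carbonyls and sugars, stood at 0.35 (SE 0.08) and 0.33 (SE 0.07) with limma adjusted p of 0.138 and 0.151, and all cKO arrays of each were above all WT arrays. Cbr4 passed in 3 of 16 other settings, 1 of them without WT 4 (0.41, limma adjusted p = 0.0227), and its highest limma adjusted p was 0.421. Pgd, the NADPH-producing enzyme of the pentose phosphate pathway, had 3 probe sets at -0.17 (SE 0.04 each), with all cKO arrays below all WT arrays at each, and did not pass (limma adjusted p from 0.174 to 0.224).

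Partners of NRF2 and sources of superoxide did not pass. Of 12 measured regulators the smallest p belonged to Bach2, at 0.15 (SE 0.07, limma adjusted p = 0.655) at the dimmest of its probe sets, and the next to Bach1, a repressor at antioxidant response elements, at -0.20 (SE 0.12, limma adjusted p = 0.814). Of 7 measured oxidase genes it was Nox4, at 0.15 (SE 0.05, limma adjusted p = 0.467), from a low level of 4.25 in WT. Of 12 genes that handle glutathione otherwise it was Chac2, at 0.07 (SE 0.05, limma adjusted p = 0.850).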

How the data were processed

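Per the submitters' processing notes the authors made the deposited log2 values with RMA, which corrects background, normalises by quantiles and summarises probes, with settings that the sources used here do not state. Base 2 is inferred from the range. Quantile normalisation hides a shift of all genes together. Of 45141 rows 104 controls were left out. The platform annotation gave 28898 probe sets 1 gene, 551 several and 15588 none, and a GRCm38.p6 table updated symbols. The groups were tested with limma 3.58.1 (lmFit and eBayes, R 4.3.3, two-sided, Benjamini-Hochberg, threshold 0.05) over all probe sets and over a gene table (probe set with the highest mean over 8 arrays), with no filter. Exact permutation tests were two-sided over 70 arrangements. The number of arrays, 4 per group, limits the precision. Values per array are given for Nfe2l2, the 12 member probe sets of smallest p, and in each role the highest and the most changed, with Gclc, Txnrd1 and, in part, Gsta2 added after their values were seen. Other pathway genes are named when called, and otherwise by smallest p, Nqo1 and Slc7a11 outside this rule. Members and lists were chosen with earlier results of these data known. On simulated data for cKO against WT over 45037 probe sets, 10 runs with 200 changed each, 73.3% of changes of 0.5 and 94.8% of changes of 1.00 were recovered, and 5.05% of calls were false. Alternatives were a replicate block, filters, other normalisation, weights, priors, thresholds and left-out arrays. Plots used matplotlib 3.10.9.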

Additional observations from a re-analysis of the deposited data

Results flagged for a closer look

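Of 90 groups of 4 arrays checked, over 45 named probe sets, 4 had 1 array apart from the rest by Dixon's criterion, which chance meets in about 1 in 20 groups, so this number is close to what chance gives. For Selenow in WT, replicate 2 was at 10.81 and the others at 10.66 to 10.68. For Gclm in cKO, replicate 4 was at 7.32 and the others at 7.61 to 7.66. At the dimmer Sod1 probe set in cKO, replicate 3 was at 6.64 and the others at 6.23 to 6.24. For Msra in WT, replicate 2 was at 7.02 and the others at 6.73 to 6.77.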

How the results depend on the processing

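Over all features, 210 probe sets and 167 genes were called. These counts were 132 and 69 in the upper 50% by mean, 758 and 604 with array weights, 657 and 430 without both cKO 2 and WT 4, 343 and 280 at a threshold of 0.1, and 104 to 356 and 81 to 249 with 1 array left out. Deviations from group means correlated at 0.13, 0.22, -0.62 and 0.37 between arrays of the same replicate number. The same-numbered array was the best partner for replicates 1 and 4 and not for 2 and 3. Whether replicate numbers pair the arrays is not settled by this. The replicate block gave 175 and 141 calls, with 2 member probe sets and 3 member genes, Gpx3 (limma adjusted p = 0.0440) in place of Gsto1 (0.150). Of members, 2 probe sets and 3 genes were called. With array weights these became 6 and 6 and at a threshold of 0.1 4 and 5, cyclic loess and eBayes with trend each gave 4 probe sets, the upper 50% gave 1 gene, and left-out arrays gave 0 to 3 probe sets and 2 to 3 genes. Pir was not tested in the upper 50% of genes, since the filter removed it. It passed in the upper 50% of probe sets (limma adjusted p = 0.0141). Of other pathway genes, 3 probe sets and 4 genes were called, against 8 and 12 with array weights, 12 and 9 without both cKO 2 and WT 4, 2 genes in the upper 50%, and 2 to 8 and 2 to 8 with 1 array left out. The filter also removed Msrb2 from the upper 50% of genes, while it passed in that of probe sets (limma adjusted p = 0.0478). The alternatives for other pathway genes and for Ehmt2 were chosen after seeing the data. Of 380 values of the 24 member probe sets that the naming rule gave, which leaves out Gclc and Txnrd1, 354 kept direction and side, 10 passed newly, 7 no longer passed and 9 turned sign. Signs turned for Nfe2l2 at 1457117_PM_at (0.059 with array weights, 0.11 without both arrays, -0.10 to 0.08 with 1 left out), for Txn1 (-0.020 with array weights, -0.021 without both arrays, -0.0061 to 0.039 with 1 left out) and for Ehmt2 at 1426888_PM_at (-0.0044 with median centring, -0.030 to 0.045 with 1 left out, 0.067 without both arrays). The cause was not tested. The levels of dim probe sets were not set against background.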
